A study of Mus musculus with 18 samples.

Results

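Epididymal adipocytes of 18-month-old mice were compared with those of 14-month-old mice across all genes on the array, using 3 arrays of each age, or 6 of the 18 arrays in the series. The members were the 3 arrays labelled as peripheral adipocytes at each of these ages, which the study's methods describe as epididymal, and the choice used no measured value. All mice were male C57BL/6J animals on standard chow, with no genetic change or treatment in any group, so that age is the labelled difference. Fat was digested with collagenase, the floating cells were collected without any sorting step, and each array carried RNA pooled from several mice, so the spread between arrays is that between pools. The other groups were epididymal adipocytes at 6 months and bone marrow adipocytes of the same mice at all 3 ages. The order in which ages were collected is not given in the sources used here, and age and day of handling cannot be told apart. The study also reports that body weight was highest at the middle age and lower at the oldest. It proposes changes in weight and fat mass as a possible reason why some genes were most affected at the middle age. Age and body weight therefore cannot be told apart here either.

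White adipocytes store triglyceride in a single large droplet, make fatty acids from glucose, release them under adrenergic control and secrete hormones such as adiponectin and leptin. Epididymal fat also holds macrophages, lymphocytes, endothelial cells, fibroblast-like progenitors and a mesothelial covering, and cells of these kinds that cling to fat cells can float with them. Adipose macrophages present antigen, clear lipid and debris, and make lysozyme, complement C1q and scavenger receptors. Collagenase digestion is itself known to raise immediate early genes and chemokines in isolated fat cells.

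The 6 preparations carried high levels of fat cell transcripts at both ages. On the log2 intensity scale, Adipoq, which encodes adiponectin, read 12.22, 12.38 and 12.29 at 14 months and 12.87, 12.77 and 12.62 at 18 months. Lep, which encodes leptin, read 12.84, 12.66 and 12.93 at 14 months and 12.96, 12.95 and 12.96 at 18 months, and Plin1, the main coat protein of the fat droplet, read 12.18, 12.18 and 12.24 at 14 months and 12.70, 12.68 and 12.69 at 18 months. The groups did not overlap for these genes, yet none of the differences passed the test, at 0.46, 0.15 and 0.49 on the log2 scale (limma over all 18 arrays, Benjamini-Hochberg adjusted p = 0.31, 0.71 and 0.14). The mean level of 26 mature adipocyte markers was 11.56 to 11.82 in the arrays at 14 months and 11.97 to 12.08 at 18 months. Markers of other cells of fat were read in every preparation as well, and many of them differed more between the ages.

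Of 23410 probe sets that name a gene, 2728 (11.7%) were higher and 2919 (12.5%) lower at 18 months at an adjusted p under 0.05, and the median log2 difference over all of them was -0.01. At a difference of at least 2-fold as well, 315 (1.35%) rose and 1127 (4.81%) fell. The median over the tested probe sets was 6.10 to 6.15 in the arrays at 14 months and 5.93 to 5.94 at 18 months. Whether this came from the scaling of the arrays or from the larger falls was not tested. Centring each array on that median gave 5527 rises and 1989 falls, repeating the quantile normalization gave 4042 and 2307, and setting the ribosomal protein genes equal gave 4620 and 1683. These scalings moved the median difference to 0.18, 0.12 and 0.20. Setting the adipocyte markers equal gave 801 rises and 8774 falls, with a median of -0.33. A small difference in a single direction therefore depended on the scaling, and the falls of 2-fold or more outnumbered the rises of that size in each of these scalings. Arrays of the same age differed by a root mean square of 0.28 at 14 months and 0.19 at 18 months on the log2 scale, against 0.59 between the ages. The arrays of the 2 ages did not overlap for 5400 probe sets (23.1%) that were higher and 5405 (23.1%) that were lower at 18 months.

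**Figure D1:**
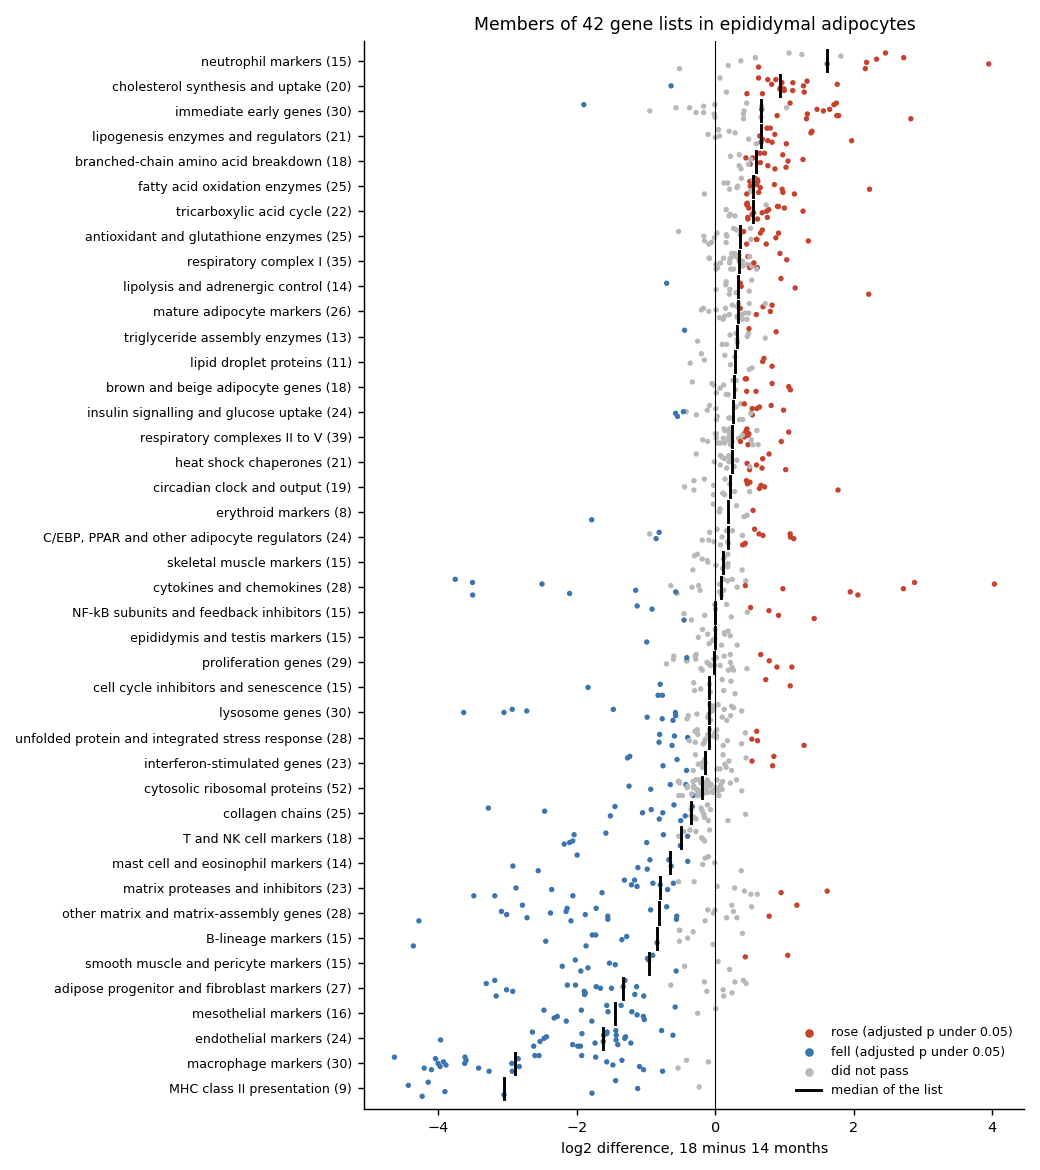
Each point is 1 gene of a list, placed by its log2 difference between epididymal adipocytes of 18 and 14 months (3 arrays each), coloured by the test, with the median of each list as a black bar and the number of measured genes in brackets. Antigen presentation and macrophage markers lie farthest to the left, at medians of -3.05 and -2.89, while cholesterol synthesis has a median of 0.94.

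Macrophage transcripts were far lower at 18 months. Of 30 macrophage markers, 27 were lower at 18 months and none was higher, with a median log2 difference of -2.89, and 26 of the falls were of at least 2-fold. Lyz1, a lysozyme that breaks bacterial walls, read 10.61, 10.71 and 10.64 at 14 months and 5.87, 6.01 and 6.15 at 18 months, a difference of -4.64 (SE 0.25, adjusted p = 1.5e-10). Its partner Lyz2 read 12.44, 12.19 and 12.02 at 14 months and 8.38, 8.07 and 8.18 at 18 months, a 16.1-fold fall. Cd163, the scavenger receptor for haptoglobin and haemoglobin complexes, read 8.98, 9.57 and 9.68 at 14 months and 5.27, 5.05 and 5.29 at 18 months, and fell by 4.21 (adjusted p = 1.4e-09). For each of these genes every array at 18 months lay more than 8-fold below the lowest array at 14 months. In whole preparations such as these, fewer cells of a type and less RNA per cell cannot be told apart.

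The complement component genes C1qa and C1qb fell together. C1qa read 10.81, 10.56 and 10.39 at 14 months and 6.63, 6.58 and 6.25 at 18 months, with a difference of -4.10 (SE 0.27, adjusted p = 2.5e-09), and C1qb differed by -4.04. Adgre1, the gene of a macrophage surface receptor, read 9.76, 9.20 and 9.03 at 14 months and 5.63, 5.73 and 5.82 at 18 months and differed by -3.60 (SE 0.22, adjusted p = 7.5e-10). Cd68, a lysosomal glycoprotein of phagocytes, read 11.11, 10.56 and 10.27 at 14 months and 7.61, 7.85 and 7.68 at 18 months, and Itgam, the integrin chain CD11b, differed by -2.61. Ptprc, the pan-leukocyte marker CD45, read 9.48, 8.87 and 8.36 at 14 months and 6.11, 5.87 and 6.26 at 18 months, a difference of -2.83 (SE 0.25, adjusted p = 1e-07). In each case the first array at 14 months was the highest of the 6, and leaving any single array out gave 27 or 28 falls among the 30 markers.

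Antigen presentation genes moved as far. Of 9 genes of the MHC class II pathway, 8 fell and none rose, at a median of -3.05. The class II chains H2-Ab1 and H2-Aa read 12.07, 11.83 and 11.58 at 14 months and 7.49, 7.35 and 7.34 at 18 months, and 12.05, 11.92 and 11.66 at 14 months and 7.70, 7.44 and 7.78 at 18 months, respectively. Their differences were -4.44 (SE 0.17, adjusted p = 1.6e-12) and -4.24 (SE 0.13, adjusted p = 3.7e-13). Cd74, the invariant chain that escorts class II molecules, differed by -4.15 (SE 0.13, adjusted p = 3.7e-13), and the class II chain H2-Eb1 by -3.91. Ctss, the cathepsin that trims the invariant chain, differed by -3.05. These 5 genes did not overlap between the ages, and their falls ran from 8.31-fold for Ctss to 21.6-fold for H2-Ab1.

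The single largest fall was that of Retnla, a small secreted protein of the resistin family made by alternatively activated macrophages and by adipose tissue. It read 10.75, 10.77 and 10.88 at 14 months and 6.21, 5.44 and 5.77 at 18 months, a difference of -4.99 (SE 0.21, adjusted p = 7.8e-12) or 31.8-fold. Wfdc17, a secreted antiprotease-like protein, read 9.18, 9.08 and 9.18 at 14 months and 4.51, 4.47 and 4.24 at 18 months, and F13a1, the A chain of clotting factor XIII, read 11.04, 11.07 and 10.97 at 14 months and 6.57, 6.43 and 6.75 at 18 months. Their differences were -4.74 and -4.44, in both cases with no array of one age reaching the range of the other. Cd209f, a C-type lectin of the DC-SIGN family, read 10.07, 10.19 and 10.31 at 14 months and 6.11, 5.94 and 6.04 at 18 months, with a difference of -4.16 (SE 0.39, adjusted p = 2.5e-07). At 6 months it read 6.67, 6.39 and 6.66, also far below its arrays at 14 months.

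Of 30 lysosome genes, 10 fell, none rose and 20 did not pass. The median was -0.09 and ranged from -0.41 to 0.12 over the other scalings. The ones that fell most are abundant in leukocytes, among them Laptm5 at -3.64 (SE 0.25, adjusted p = 5.1e-09), Ctsh at -2.72 (SE 0.16, adjusted p = 3.7e-10) and Ctss. Atp6v0d2, a subunit of the proton pump used by macrophages and osteoclasts, read 8.64, 6.51 and 6.28 at 14 months and 5.83, 5.701 and 5.49 at 18 months, and its fall was lost when the first array at 14 months or the third at 18 months was left out.

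Lymphocyte and mast cell transcripts fell in part. Of 15 B-lineage markers, 8 fell and none rose, and of 18 T and NK cell markers 9 fell and none rose. Jchain, which joins the units of secreted IgA and IgM, read 10.40, 9.07 and 8.67 at 14 months and 5.22, 4.72 and 5.12 at 18 months, a difference of -4.36 (SE 0.33, adjusted p = 1.2e-08). Ms4a1, the B cell antigen CD20, differed by -2.45 and Cd79a, a chain of the B cell receptor, by -1.87. Cd3g of the T cell receptor complex read 7.49, 6.58 and 6.14 at 14 months and 4.59, 4.87 and 4.57 at 18 months, with a difference of -2.06 (SE 0.29, adjusted p = 2.4e-05). Mcpt4 and Cpa3, proteases stored in mast cell granules, differed by -2.93 and -2.56, and 9 of 14 mast cell and eosinophil markers fell, or 5 without the third array at 14 months or the second at 18 months. The first array at 14 months was the highest of the 6 for Jchain, Ms4a1, Cd79a, Cd3g and Mcpt4.

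**Figure D2:**
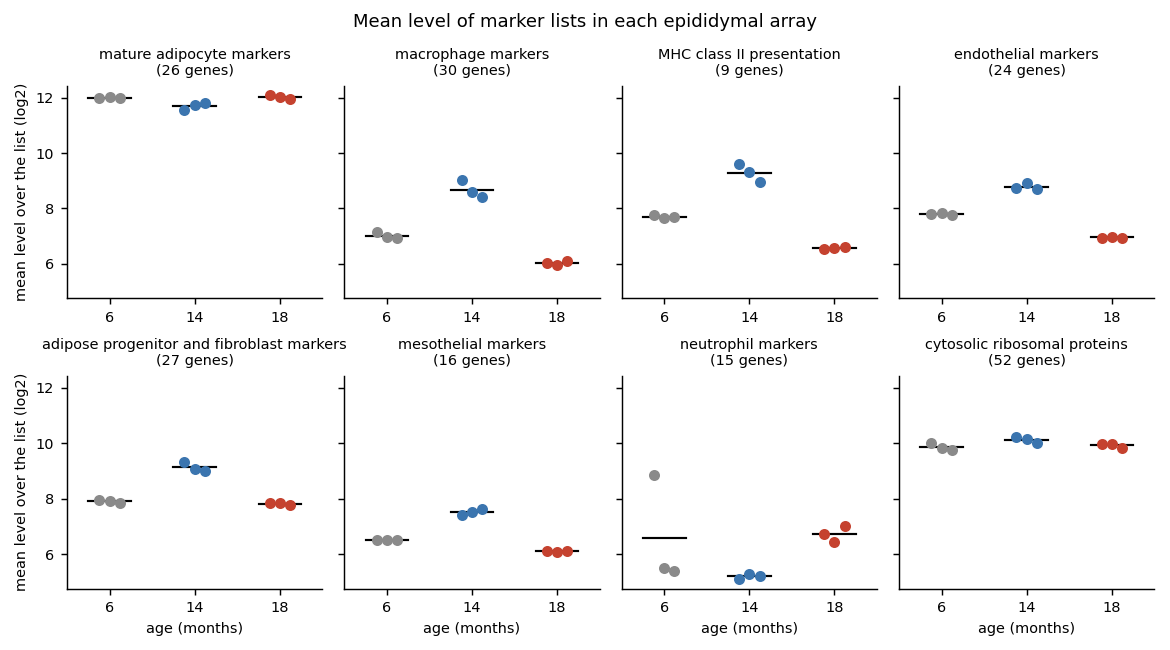
Mean log2 level over each marker list in every epididymal array (points, 3 at each age in months) with the mean of the 3 arrays as a bar. The macrophage list lies at 8.42 to 9.02 at 14 months and 5.97 to 6.12 at 18 months, while the mature adipocyte list lies at 11.56 to 11.82 and 11.97 to 12.08.

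Vessel and lining cells followed the same direction. All 24 endothelial markers were lower at 18 months and passed the test, 22 of them by at least 2-fold, at a median of -1.62. Lyve1, a hyaluronan receptor of lymphatic vessels and of some tissue macrophages, read 10.01, 9.98 and 9.70 at 14 months and 5.93, 5.94 and 5.92 at 18 months, a difference of -3.97 (SE 0.13, adjusted p = 3.7e-13). Pecam1, the endothelial adhesion molecule CD31, read 9.69, 9.79 and 9.68 at 14 months and 7.75, 7.76 and 7.69 at 18 months, a difference of -1.99 (SE 0.12, adjusted p = 4.2e-10). Vwf, the von Willebrand factor gene, differed by -2.64, and Eng, a co-receptor of the TGF-beta family, by -2.48. In the repeated fit with ribosomal protein genes set equal, 22 of the 24 markers fell.

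Of 16 mesothelial markers, 14 fell and none rose, at a median of -1.46. Upk3b, a uroplakin of the mesothelial surface, read 9.47, 9.66 and 10.03 at 14 months and 7.24, 7.23 and 7.27 at 18 months, with a difference of -2.48 (SE 0.17, adjusted p = 4e-09). Krt19, a keratin of simple epithelia and mesothelium, differed by -2.33, and Upk1b by -2.28. Of 15 smooth muscle and pericyte markers, 10 fell and 2 rose, Synpo2 and Cspg4, or 1 without the second or the third array at 14 months or any at 18 months. Myh11, the smooth muscle myosin heavy chain, read 8.36, 9.24 and 7.88 at 14 months and 6.26, 6.40 and 6.18 at 18 months, and the second array at 14 months was the highest of the 6 for it and for Tagln and Myl9, which differed by -2.02 and -1.94.

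Progenitor genes fell or did not pass. Of 27 adipose progenitor and fibroblast markers, 18 fell and none rose, all 18 by at least 2-fold. Pdgfra, the growth factor receptor that marks adipose progenitors, read 10.38, 9.74 and 9.74 at 14 months and 6.67, 6.90 and 6.80 at 18 months, a difference of -3.17 (SE 0.25, adjusted p = 2.5e-08). Mfap5, a microfibril protein, differed by -3.31 (SE 0.14, adjusted p = 5.4e-12), Mmp2, a gelatinase, by -3.19, and Cd34 by -2.93. The other 9 did not pass. Of the 27, 6 lay above 0, and 5 were higher at 18 months without overlap, against 23.1% of all tested probe sets. Array weights and centring on the median each called 4 rises.

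Fn1, which encodes the matrix glycoprotein fibronectin, showed one of the largest falls of any gene. It read 11.98, 11.85 and 11.85 at 14 months and 7.59, 7.46 and 7.77 at 18 months, a 19.5-fold difference with an adjusted p of 1.4e-11. Of a list of 28 matrix and matrix-assembly genes that includes Fn1, 17 fell and 2 rose, Tnc and Nid2, and the rises were 1 without the second or the third array at 14 months or the third at 18 months. Tnxb, a tenascin of loose connective tissue, differed by -3.09 (SE 0.12, adjusted p = 4.1e-12) and Lama2, a laminin chain of basement membranes, by -2.79. Among 23 matrix proteases and inhibitors, 14 fell and 2 rose, Mmp8 and Adamts1, or 1 without any single one of the 6 arrays, with Timp2, an inhibitor of gelatinases, at -3.49 (SE 0.11, adjusted p = 3.7e-13), Mmp14 at -2.88 and Plau, the urokinase gene, at -2.36.

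Collagen chains divided. Of 25, 12 fell, none rose and 13 did not pass, at a median of -0.35. Col14a1, a chain found on the surface of collagen fibrils, read 9.16, 9.11 and 8.98 at 14 months and 5.66, 5.96 and 5.79 at 18 months, a difference of -3.28 (SE 0.19, adjusted p = 5.1e-10). Col3a1, a major fibrillar chain, differed by -1.52 (SE 0.14, adjusted p = 1.2e-07) and Col6a5 by -2.47. The number that fell depended on the scaling and on single arrays, at 7 with ribosomal protein genes set equal, 21 with adipocyte markers set equal and 7 without the first array at 18 months.

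The mean level of the endothelial list was 8.69 to 8.90 at 14 months and 6.94 to 6.98 at 18 months, that of the progenitor and fibroblast list 9.01 to 9.31 and 7.76 to 7.84, and that of the mesothelial list 7.39 to 7.64 and 6.08 to 6.12. The part of these cells in the other differences was not tested. In the 6-month arrays the macrophage list lay between those ages, at 6.92 to 7.13, and so did the endothelial list, at 7.76 to 7.85. The mesothelial list read 6.49 to 6.51 at 6 months. The progenitor and fibroblast list read 7.85 to 7.96 there, just above its arrays at 18 months and far below those at 14 months. The lower levels at 18 months therefore followed higher levels at 14 than at 6 months. Whether body weight or fat mass had a part in this course was not tested. None of 15 skeletal muscle markers passed, and of 15 epididymis and testis markers 1 fell, Adam7, at -0.99.

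**Figure D3:**
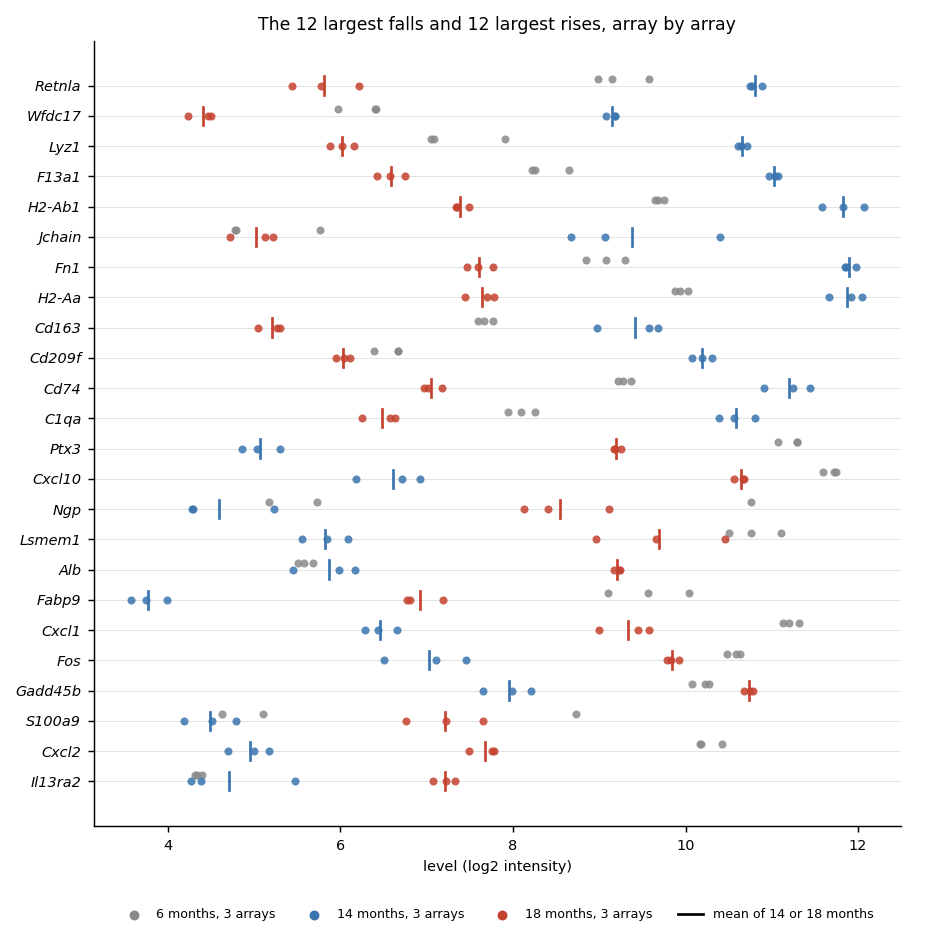
Log2 intensity in every epididymal array for the 12 genes with the largest falls and the 12 with the largest rises from 14 to 18 months, among genes whose arrays did not overlap between those ages. Blue and red points are 14 and 18 months with their means as bars, and grey points, drawn slightly above, are the 6-month arrays, which for Ptx3, Cxcl10, Cxcl1 and Cxcl2 lie to the right of both.

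The largest rises included genes of the early response to injury and inflammation. Ptx3, a soluble pattern recognition protein, read 5.03, 5.296 and 4.86 at 14 months and 9.18, 9.25 and 9.17 at 18 months, a difference of 4.14 (SE 0.21, adjusted p = 6.9e-11) or 17.6-fold. Cxcl10, a chemokine that draws activated T cells, read 6.93, 6.71 and 6.18 at 14 months and 10.67, 10.56 and 10.68 at 18 months, a difference of 4.03 (SE 0.18, adjusted p = 1.9e-11). Gadd45b, a stress-induced adaptor protein, read 8.20, 7.66 and 7.99 at 14 months and 10.68, 10.74 and 10.78 at 18 months, and rose by 2.78 (SE 0.19, adjusted p = 2.8e-09). For each of these the 3 arrays at 18 months lay close together, far above the range at 14 months.

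Of 30 immediate early genes, 13 rose, 1 fell and 16 did not pass, against 11.7% of all tested probe sets that rose, and their median difference was 0.66. Fos, a subunit of the AP-1 transcription factor, read 6.50, 7.11 and 7.46 at 14 months and 9.92, 9.84 and 9.78 at 18 months, a difference of 2.82 (SE 0.37, adjusted p = 1.2e-05). Myc, a transcription factor of growth, differed by 1.78 (SE 0.13, adjusted p = 1.2e-08), Ier3, a survival gene, by 1.75 (SE 0.18, adjusted p = 6e-07) and Ccn1, a matricellular protein, by 1.75 (SE 0.44, adjusted p = 0.0056). Klf2, a factor of quiescent endothelium and lymphocytes, went the other way. It read 8.99, 9.09 and 8.99 at 14 months and 7.35, 6.95 and 7.06 at 18 months, a difference of -1.90 (SE 0.45, adjusted p = 0.0041). The falls were 3 without the first array at 14 months, 4 with array weights and 5 with adipocyte markers set equal. At 6 months Fos, Myc, Ier3 and Ccn1 were higher still, with Fos at 10.59, 10.63 and 10.47 and Myc at 10.16, 10.35 and 10.36.

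Cytokines and chemokines moved in both directions. Of 28, 7 rose, 7 fell and 14 did not pass, against 11.7% and 12.5% of all tested probe sets that rose and fell. Their median was 0.07 and ranged from -0.25 to 0.29 over the other scalings. Cxcl1, which draws neutrophils, read 6.29, 6.44 and 6.65 at 14 months and 9.58, 8.99 and 9.44 at 18 months, a difference of 2.88 (SE 0.16, adjusted p = 1.8e-10), and its neighbour Cxcl2 read 5.17, 4.69 and 5.00 at 14 months and 7.78, 7.75 and 7.49 at 18 months, a difference of 2.72 (SE 0.23, adjusted p = 4.9e-08). Il6, an inflammatory cytokine, read 3.56, 3.91 and 3.55 at 14 months and 6.09, 5.61 and 5.51 at 18 months, a difference of 2.06 (SE 0.29, adjusted p = 3e-05). The members that fell included Ccl6 and Ccl8, macrophage-made chemokines that differed by -3.51 (SE 0.20, adjusted p = 3.1e-10) and -3.51 (SE 0.18, adjusted p = 9e-11). Cxcl13, which draws B cells into follicles, read 10.67, 8.46 and 7.97 at 14 months and 5.46, 5.31 and 5.06 at 18 months, and its first array at 14 months stood well above the other 2 of that age. Tnf read 6.05, 6.09 and 5.69 at 14 months and 6.23, 5.93 and 6.02 at 18 months and Il1b 4.67, 4.54 and 4.55 at 14 months and 4.45, 4.78 and 4.71 at 18 months, and neither passed, at 0.12 and 0.06. Ptgs2, the inducible cyclooxygenase, overlapped between the ages and differed by -0.57 (SE 0.19, adjusted p = 0.035), a call lost without the second or the third array at 14 months, without any single array at 18 months, or when the compared groups were fitted alone.

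NF-kB is a transcription factor that activates chemokine genes and also the genes of its own inhibitors. Of 15 genes of an NF-kB list of subunits, inhibitors and target genes, 4 rose, 3 fell and 8 did not pass. Over all tested probe sets 11.7% rose and 12.5% fell. Tnfaip3, the ubiquitin-editing enzyme A20, read 7.15, 7.38 and 7.08 at 14 months and 8.72, 8.53 and 8.65 at 18 months, a difference of 1.43 (SE 0.16, adjusted p = 3e-06). Nfkbia, the inhibitor that holds NF-kB in the cytoplasm, differed by 0.78 (SE 0.13, adjusted p = 0.00023) and Sod2, the mitochondrial superoxide dismutase, by 0.91 (SE 0.17, adjusted p = 0.00041). Nfkbie and Icam1, an adhesion molecule of endothelium and leukocytes, fell by 1.13 and 0.91. Promoters are shown for some of the genes that rose, picked because they carry letters of the form that NF-kB is known to bind. The promoters held for Cxcl10 and Sod2, which also rose, did not have this form. That of Tnfaip3 had it and is not printed.

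The promoters below are the 250 bases before the annotated start, from RefSeq on GRCm38.p6, written 5′ to 3′ on the strand of the gene. Capitals mark each match to GGGNNTTTC on either strand. This form was found in 1223 of 32851 promoters of that length (3.72%), and in 3 of the 4 promoters held here among the 7 cytokines that rose, 1 of the 6 held for those that fell and 5 of the 19 held for all 28 measured. Of the 4 NF-kB genes that rose, 2 had it, Nfkbia and Tnfaip3, as did 5 of the 13 promoters held for the 15 measured.
Cxcl1 promoter, chr5:90890995-90891244, plus strand: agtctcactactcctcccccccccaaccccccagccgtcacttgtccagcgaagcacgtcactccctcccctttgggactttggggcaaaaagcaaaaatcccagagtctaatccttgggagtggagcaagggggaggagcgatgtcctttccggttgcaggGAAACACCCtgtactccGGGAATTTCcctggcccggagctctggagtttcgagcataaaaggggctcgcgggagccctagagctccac
Cxcl2 promoter, chr5:90903649-90903898, plus strand: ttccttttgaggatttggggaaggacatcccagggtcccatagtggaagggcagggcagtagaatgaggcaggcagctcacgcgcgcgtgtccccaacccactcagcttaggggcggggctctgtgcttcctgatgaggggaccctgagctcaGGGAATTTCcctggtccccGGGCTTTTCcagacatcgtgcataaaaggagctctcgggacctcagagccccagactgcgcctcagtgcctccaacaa
Il6 promoter, chr5:30012864-30013113, plus strand: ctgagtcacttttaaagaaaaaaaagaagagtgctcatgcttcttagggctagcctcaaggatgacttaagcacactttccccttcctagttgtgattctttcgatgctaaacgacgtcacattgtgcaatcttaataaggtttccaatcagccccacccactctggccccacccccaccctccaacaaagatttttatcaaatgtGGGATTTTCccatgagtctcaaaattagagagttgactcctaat
Nfkbia promoter, chr12:55492648-55492897, minus strand: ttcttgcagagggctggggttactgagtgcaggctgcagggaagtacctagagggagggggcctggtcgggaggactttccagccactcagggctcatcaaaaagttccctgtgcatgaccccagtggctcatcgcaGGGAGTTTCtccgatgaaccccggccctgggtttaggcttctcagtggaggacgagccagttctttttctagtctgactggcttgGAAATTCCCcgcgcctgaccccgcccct
In the Cxcl1 and Cxcl2 promoters the matches come as a pair close to the start, Il6 holds 1 match and Nfkbia holds 1 near the start and 1 farther out. A match describes the letters and says nothing about binding in these cells.

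**Figure D4:**
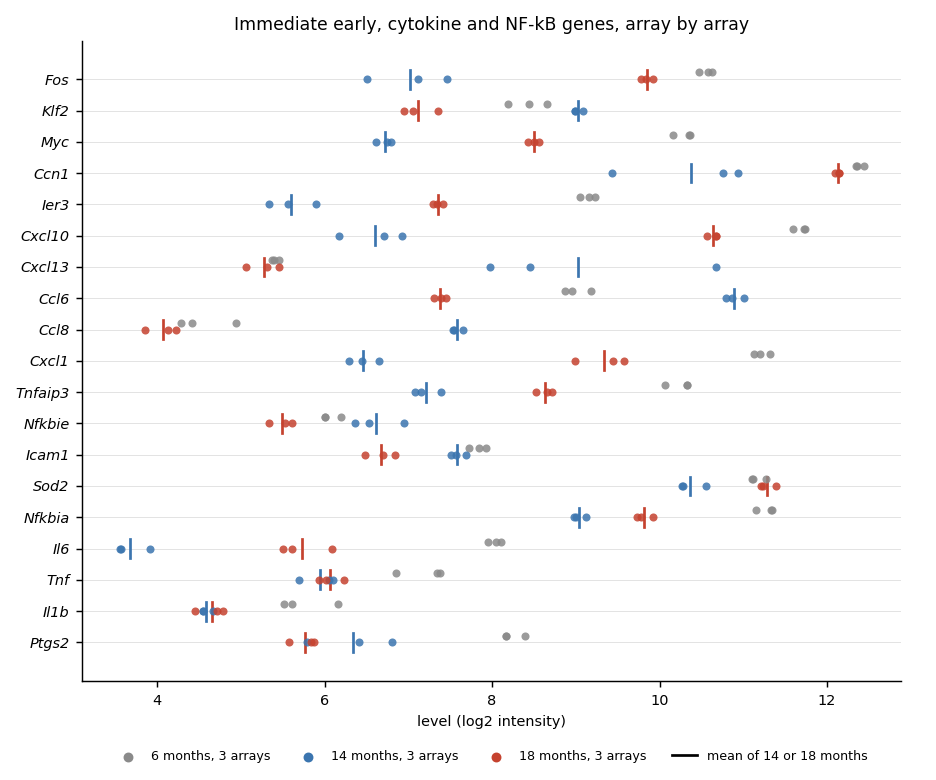
Log2 intensity in every epididymal array for immediate early, cytokine and NF-kB genes, with 14 months in blue, 18 months in red, their means as bars and 6 months in grey above the line. Cxcl10, Cxcl1, Il6, Fos and Myc read lowest at 14 months and highest at 6 months, whereas Cxcl13, Ccl6 and Ccl8 read highest at 14 months.

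Stress genes were mixed. Hmox1, the haem-degrading enzyme, read 8.25, 8.13 and 8.20 at 14 months and 9.62, 9.55 and 9.44 at 18 months, a difference of 1.34 (SE 0.18, adjusted p = 1.7e-05), and 10 of 25 antioxidant and glutathione enzymes rose with none falling. With adipocyte markers set equal, 4 of the 25 rose and 3 fell. Ppp1r15a, which restarts translation after stress, differed by 1.28 (SE 0.15, adjusted p = 4.2e-06), while the endoplasmic reticulum genes Sdf2l1, Creld2 and Herpud1 fell by 0.81, 0.80 and 0.63. Of 21 heat shock chaperones 7 rose, led by Hspa1a, the inducible HSP70, at 1.02 (SE 0.16, adjusted p = 7e-05). With adipocyte markers set equal, 2 of them rose and 1 fell. Of 19 clock genes 7 rose, or 4 without the first array of either age, with Nfil3, a repressor of the clock output, at 1.77 (SE 0.14, adjusted p = 2.8e-08) and the nuclear receptor Nr1d1 at 0.71.

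Fat cell genes of lipid synthesis rose at 18 months, by smaller amounts. Of 21 lipogenesis enzymes and regulators, 12 rose and none fell, at a median of 0.66. Elovl6, which lengthens palmitate to stearate, read 8.27, 8.57 and 8.57 at 14 months and 10.47, 10.43 and 10.42 at 18 months, a difference of 1.97 (SE 0.16, adjusted p = 2.8e-08) or 3.91-fold. Acaca, the first committed enzyme of fatty acid synthesis, read 10.32, 10.80 and 10.88 at 14 months and 12.12, 12.05 and 11.99 at 18 months, a difference of 1.38 (SE 0.15, adjusted p = 1.3e-06). Acss2 and Acly, which make cytosolic acetyl-CoA from acetate and citrate, differed by 1.40 (SE 0.17, adjusted p = 5.5e-06) and 1.03 (SE 0.16, adjusted p = 6.1e-05), and Fasn, the fatty acid synthase, by 0.79 (SE 0.12, adjusted p = 8.3e-05). The 3 arrays at 18 months were tightly grouped for all of these, and the first array at 14 months was the lowest of the 6.

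Cholesterol synthesis had the largest share of rises among the 42 lists. Of 20 genes, 17 rose, 1 fell and 2 did not pass, at a median of 0.94. Idi1, which makes the activated isoprene unit, read 8.02, 8.31 and 8.38 at 14 months and 10.10, 9.95 and 9.93 at 18 months, a difference of 1.76 (SE 0.23, adjusted p = 1.5e-05). Sqle, the epoxidase that commits squalene to sterols, read 6.60, 6.56 and 6.95 at 14 months and 7.98, 8.05 and 7.90 at 18 months and differed by 1.27 (SE 0.19, adjusted p = 5.7e-05). The next steps, Lss and Cyp51, differed by 1.28 (SE 0.15, adjusted p = 4.8e-06) and 1.33 (SE 0.14, adjusted p = 9.4e-07), and Nsdhl, which removes methyl groups from the sterol nucleus, by 1.12. Insig1, which retains the sterol sensor in the endoplasmic reticulum, read 12.02, 12.32 and 12.48 at 14 months and 13.04, 12.997 and 13.05 at 18 months, a difference of 0.76 (SE 0.17, adjusted p = 0.0027). The member that fell was Srebf2, the transcription factor that drives this pathway, which was named after its value was seen. It read 8.64, 8.47 and 8.49 at 14 months and 7.87, 7.91 and 7.89 at 18 months, a difference of -0.64 (SE 0.11, adjusted p = 0.00029).

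Promoters of these enzymes often hold a CCAAT box, the site of the factor NF-Y, which works beside the sterol-regulated factors. CCAAT, read on either strand, was found in 13 of the 14 promoters held here among the 17 genes that rose, and in 11120 of 32851 promoters of the same 250 bases (33.8%). It was also present in Srebf2, which fell, and in 15 of the 16 promoters held for the 20 genes measured, so it did not separate the genes that rose. The motif TCACNCCAC, a form of the sterol regulatory element, was found in the promoter of Hmgcs1 alone among the 14 (346 of all promoters, 1.05%). Capitals mark both motifs on either strand in 3 of them, on GRCm38.p6.
Idi1 promoter, chr13:8885356-8885605, plus strand: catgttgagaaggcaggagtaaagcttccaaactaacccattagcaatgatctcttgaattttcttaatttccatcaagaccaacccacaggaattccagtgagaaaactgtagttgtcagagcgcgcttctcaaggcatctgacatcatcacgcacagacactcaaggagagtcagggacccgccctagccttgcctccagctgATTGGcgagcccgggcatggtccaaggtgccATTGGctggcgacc
Hmgcs1 promoter, chr13:119690101-119690350, plus strand: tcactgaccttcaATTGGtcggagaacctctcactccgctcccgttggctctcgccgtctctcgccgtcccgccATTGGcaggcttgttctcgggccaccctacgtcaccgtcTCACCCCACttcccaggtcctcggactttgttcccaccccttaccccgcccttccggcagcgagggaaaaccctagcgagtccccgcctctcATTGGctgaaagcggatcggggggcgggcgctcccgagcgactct
Lss promoter, chr10:76531355-76531604, plus strand: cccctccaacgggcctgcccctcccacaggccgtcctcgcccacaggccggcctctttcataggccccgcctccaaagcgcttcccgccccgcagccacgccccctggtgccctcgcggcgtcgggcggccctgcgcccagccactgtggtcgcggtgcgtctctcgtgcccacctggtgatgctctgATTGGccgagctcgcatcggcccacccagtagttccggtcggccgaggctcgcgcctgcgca
The Idi1 promoter has a pair of CCAAT boxes near the start, and Lss a single one. Hmgcs1, which feeds the pathway, has the sterol-type match between CCAAT boxes.

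Mitochondrial enzyme genes rose in the same arrays. Of 22 genes of the tricarboxylic acid cycle, 17 rose and none fell, at a median of 0.54, and of 25 fatty acid oxidation enzymes 16 rose and none fell, at 0.55. Pdk4, the kinase that shuts pyruvate out of the cycle when fat is burned, read 7.75, 8.40 and 8.53 at 14 months and 10.43, 10.38 and 10.55 at 18 months, a difference of 2.23 (SE 0.18, adjusted p = 2.2e-08) or 4.68-fold. Dld, a subunit shared by the pyruvate, oxoglutarate and branched-chain dehydrogenases, read 9.55, 9.58 and 9.98 at 14 months and 11.03, 10.94 and 10.95 at 18 months, a difference of 1.27 (SE 0.22, adjusted p = 0.00025). Idh3a, an isocitrate dehydrogenase subunit, differed by 1.00 (SE 0.16, adjusted p = 0.00013) and the peroxisomal enzyme Ehhadh by 0.97 (SE 0.17, adjusted p = 0.00022). Without the first array at 14 months the cycle's count was 11 of 22.

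Breakdown of branched-chain amino acids, a fuel of white fat, rose in 12 of 18 genes with none falling, or in 5 with adipocyte markers set equal. Mccc2 and Mccc1, the subunits of an enzyme of leucine breakdown, differed by 1.05 (SE 0.13, adjusted p = 8.2e-06) and 0.97 (SE 0.19, adjusted p = 0.00085), and Auh, the next step, read 9.24, 9.31 and 9.40 at 14 months and 10.38, 10.38 and 10.26 at 18 months and differed by 1.02 (SE 0.11, adjusted p = 2.1e-06). Of 35 complex I genes 8 rose and of 39 genes of complexes II to V 13 rose, none falling in either, and the examples Ndufb3, Uqcrc2 and Cox7a1 differed by 1.03 (SE 0.12, adjusted p = 3.9e-06), 0.95 (SE 0.10, adjusted p = 1.3e-06) and 1.06 (SE 0.15, adjusted p = 2.9e-05). Most differences were small but upward, with 33 of the 35 and 37 of the 39 genes above 0. The counts that passed depended on the fit, the scaling and single arrays. With the compared groups fitted alone 16 and 19 rose, and with adipocyte markers set equal 2 and 2. Leaving out the first or second array of either age left 3 to 5 of the complex I genes and 3 to 8 of complexes II to V.

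**Figure D5:**
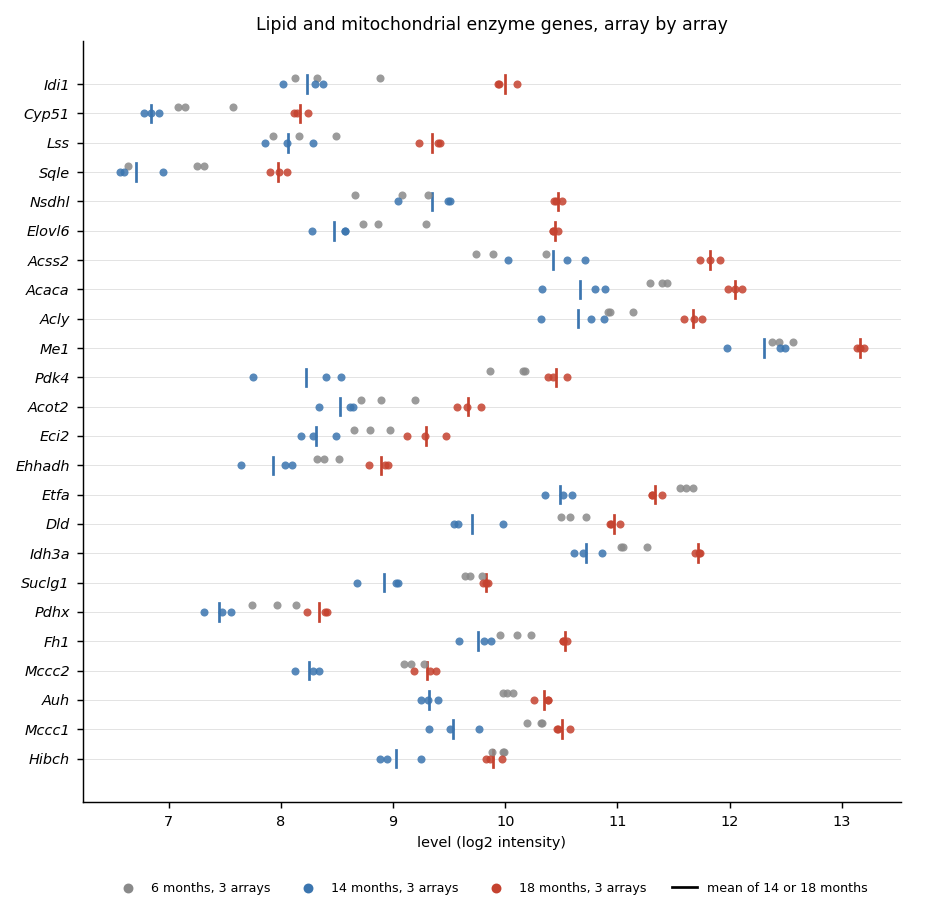
Log2 intensity in every epididymal array for up to 5 members that passed the test from each of the cholesterol, lipogenesis, fatty acid oxidation, citric acid cycle and branched-chain amino acid lists, with 14 months in blue, 18 months in red, their means as bars and 6 months in grey above the line. For every gene shown the arrays at 18 months lie to the right of those at 14 months, by 0.77 (Fh1) to 2.23 (Pdk4) in the mean.

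The level of adipocyte markers moved with these enzymes, since 5 of 26 rose, against 11.7% of all tested probe sets, none fell and their median was 0.33. Those 5 were Cidea, Fasn, Pparg, Mgst1 and Lipe, with Pparg, the master regulator of fat cell identity, at 0.69 (SE 0.18, adjusted p = 0.0068). Fitting the compared groups alone called 14 of the 26, centring on the median 15, and leaving out the third array at 14 months 8. When the adipocyte markers were set equal between arrays, 13 of 20 cholesterol genes, 7 of 21 lipogenesis genes, 4 of 25 oxidation genes and 5 of 22 cycle genes rose, with medians of 0.62, 0.34, 0.23 and 0.22. In that scaling the medians of complexes II to V, lipid droplet proteins, triglyceride enzymes, brown and beige genes, insulin signalling, adipocyte regulators, heat shock chaperones and clock genes turned to values below 0, from -0.14 for the regulators to -0.01 for the triglyceride enzymes, and the calls of Pparg, Plin2 and Irs1 were lost. Pparg, Fasn, Lipe and Cidea are among the markers whose mean was set equal, so that scaling by its making draws their own differences toward 0. The fall in transcripts of other cells accompanied these rises, and its part in them was not tested.

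Of 14 genes of lipolysis and adrenergic control, 5 rose, or 3 without the first array of either age, 1 fell and 8 did not pass. Hcar2, the receptor through which nicotinic acid and ketone bodies restrain lipolysis, read 5.40, 5.56 and 5.78 at 14 months and 7.84, 7.80 and 7.75 at 18 months, a difference of 2.22 (SE 0.17, adjusted p = 1.9e-08). Hcar1, the lactate receptor of fat cells, read 8.05, 8.26 and 8.59 at 14 months and 9.38, 9.49 and 9.496 at 18 months, a difference of 1.15 (SE 0.20, adjusted p = 0.00027), and Abhd5, the activator of the first triglyceride lipase, differed by 0.95 (SE 0.14, adjusted p = 6.7e-05). Gnai2, an inhibitory G protein that leukocytes also express strongly, fell by 0.70 (adjusted p = 4.2e-05). Of 13 triglyceride assembly enzymes 2 rose and 1 fell, against 11.7% and 12.5% of all tested probe sets. Leaving out the first array at 14 months or any at 18 months left 1 rise. The droplet coat gene Plin2 differed by 0.70 (SE 0.16, adjusted p = 0.0029), while Plin3 at 0.22 did not pass.

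Among adipocyte regulators, 8 of 24 rose and 2 fell, against 11.7% and 12.5% of all tested probe sets, with 5 rises left without the first array at 14 months. Ppargc1a, the coactivator of mitochondrial genes, read 5.18, 5.72 and 5.72 at 14 months and 6.65, 6.60 and 6.62 at 18 months, a difference of 1.08 (SE 0.14, adjusted p = 8.1e-06), and Rxrg, a partner of nuclear receptors, differed by 1.13 (SE 0.22, adjusted p = 0.00069). Cebpb, an early factor of adipogenesis, differed by 1.08 (SE 0.24, adjusted p = 0.0021), whereas Cebpa at 0.43 did not pass. Gata2 and Gata3, which restrain fat cell formation and are also expressed in leukocytes, fell by 0.81 and 0.86. Of 18 brown and beige genes 7 rose and none fell, the largest being Ppargc1a and Cox7a1, and 4 rose without the first or second array at 14 months or the second or the third at 18 months. Of 24 genes of insulin signalling and glucose uptake 7 rose and 3 fell, against 11.7% and 12.5% of all tested probe sets, so the falls lay near that share. Among the rises were Grb14, an adaptor that blocks the insulin receptor, at 0.99 (SE 0.15, adjusted p = 5e-05) and Irs1 at 0.60 (SE 0.17, adjusted p = 0.013), whose other probe set differed by 0.23 and did not pass. Without the first array of either age 4 of the 7 rises were left, and the falls became 5 without the third array at 14 months and 1 without the third at 18 months. Fgf10, a growth factor of adipose progenitors, read 6.10, 6.59 and 6.80 at 14 months and 8.13, 7.76 and 7.92 at 18 months, a difference of 1.44 (SE 0.20, adjusted p = 2.5e-05).

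Neutrophil transcripts were the exception among markers of other cells. Of 15 neutrophil markers, 8 rose and none fell, at a median of 1.62. Ngp, a protein of neutrophil granules, read 4.28, 5.23 and 4.29 at 14 months and 8.41, 8.12 and 9.11 at 18 months, a difference of 3.95 (SE 0.86, adjusted p = 0.0021), and S100a9, a subunit of calprotectin, read 4.18, 4.78 and 4.51 at 14 months and 7.65, 6.77 and 7.22 at 18 months, a difference of 2.72 (SE 0.64, adjusted p = 0.0036). The standard errors were wide, and the shared spread included the first 6-month array, which read 10.76 for Ngp while the other 2 read 5.72 and 5.18. Without that array 12 of the 15 markers rose, with the compared groups fitted alone 13 did, and leaving out each compared array in turn left 2 to 5. Of 8 erythroid markers 1 rose and 1 fell, against 11.7% and 12.5% of all tested probe sets. Alas2, the first enzyme of haem synthesis in red cell precursors, was the one that fell, by -1.79 (adjusted p = 0.00041).

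Some of the largest rises were of genes that are not known for fat cells. Alb, which encodes the liver's serum albumin, read 5.45, 5.98 and 6.17 at 14 months and 9.22, 9.24 and 9.17 at 18 months, a difference of 3.34 (SE 0.15, adjusted p = 1.8e-11), and at 6 months it read 5.68, 5.50 and 5.58. Il13ra2, a decoy receptor for interleukin 13, read 5.47, 4.26 and 4.39 at 14 months and 7.33, 7.08 and 7.22 at 18 months, a difference of 2.501 (SE 0.25, adjusted p = 4.6e-07), with 4.40, 4.32 and 4.34 at 6 months. For both genes the arrays at 18 months stood above all others of the epididymal cells. Lsmem1, a small membrane protein, read 5.55, 5.84 and 6.09 at 14 months and 8.96, 9.65 and 10.46 at 18 months, and Fabp9, a fatty acid binding protein known from testis, read 3.57, 3.75 and 3.995 at 14 months and 6.77, 6.81 and 7.19 at 18 months, and these read highest at 6 months, at 10.50, 10.75 and 11.11 and 9.10, 9.57 and 10.04.

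Ccnd1, the cyclin that opens the cell cycle, read 8.51, 8.27 and 8.09 at 14 months and 6.70, 6.27 and 6.39 at 18 months, a difference of -1.84 (SE 0.20, adjusted p = 1.4e-06). Of 15 cell cycle inhibitors and senescence genes 2 rose and 4 fell, the falls being 2 without the first array at 14 months or any at 18 months, with Cdkn2c, an inhibitor of cyclin D kinases that rises in mature fat cells, at 1.08 (SE 0.13, adjusted p = 3.4e-06) and Cdkn1b at -0.77 (SE 0.16, adjusted p = 0.0013). The other probe set of Cdkn1b differed by -0.57 and did not pass. Of 29 proliferation genes 4 rose and 1 fell, and of 23 interferon-stimulated genes 3 rose and 5 fell, with Oasl2 at -1.27 and Gbp3 at 0.85. Over all tested probe sets 11.7% rose and 12.5% fell, and the rises in these lists lay near that share. The interferon counts were 1 rise without the third array at 14 months or the first at 18 months, and 3 falls without the first array of either age or the second at 18 months. Sirt1, a deacetylase linked to nutrient state, differed by 0.77 (SE 0.12, adjusted p = 9.3e-05) and Trib2, a pseudokinase, by -0.95 (SE 0.19, adjusted p = 0.00096). Cytosolic ribosomal proteins gave 6 falls of 52 and no rise, against 12.5% of all tested probe sets that fell, with 2 to 26 falls and 0 to 3 rises over the other scalings and 12 falls with the compared groups alone. Their median was -0.19 and ranged from -0.52 to 0.02 over the other scalings. The 0.02 came from the scaling that sets the mean of these same genes equal, which by its making holds them near 0.

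The same step of age was measured in bone marrow adipocytes of these mice, and the difference between the cell types was tested as an interaction. Of 23410 probe sets, 3699 (15.8%) changed differently, 1886 (8.06%) more upward and 1813 (7.74%) more downward in the epididymal cells. Centring on the median gave 3102 and 1361, ribosomal protein genes set equal 2048 and 1121, and adipocyte markers set equal 428 and 8516. The macrophage list was lower by more in the epididymal cells for 23 of its 30 genes, and the endothelial list for 21 of 24, while the medians in bone marrow were -0.37 and -0.07. At 14 months the mean level of the macrophage list was 8.79 to 9.16 in the marrow arrays. That of the endothelial list was 6.21 to 6.65 there, against 8.69 to 8.90 in the epididymal arrays, so its genes had less room to fall in marrow. Retnla differed by 0.25 in bone marrow, so that the interaction was -5.24 (SE 0.30, adjusted p = 2.1e-09). Of 30 immediate early genes, 19 moved more upward in the epididymal cells, where their median was 0.66 against -0.87 in bone marrow. Gadd45b differed by -1.77 there, an interaction of 4.55 (SE 0.26, adjusted p = 2.1e-09). Of the 20 cholesterol genes 15 moved more upward in the epididymal cells, but only 3 of 22 cycle genes and 3 of 25 oxidation genes passed this test, so for most of those a difference between the cell types was not shown.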

How the data were processed

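RNA of adipocytes was read on 18 Affymetrix GeneChip Mouse Gene 1.0 ST arrays, 3 for each of 6 groups, and 6 of these arrays are compared here. The deposited values are log2 intensities made in Partek Genome Suite. The study's methods name gcRMA with quantile normalization, while the caption of its supplementary figure names RMA. From 35556 probe sets, the 23410 that name at least 1 gene were tested with limma 3.58.1 in R 4.3.3, with a mean for each of the 6 groups over all 18 arrays, as the study's own analysis of variance used them all. Differences were called at a Benjamini-Hochberg adjusted p under 0.05 over all tested probe sets, and the same fit gave the difference from bone marrow. A gene was read from the probe set naming that gene alone with the highest mean, so Ucp2, C3 and Cfd had no value. The number of arrays limits the precision, and the p-values measure the spread between pools.

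The text names the 12 largest rises and falls without overlap, up to 5 members of each of 42 lists that passed the test, the defining markers and genes the study discusses for age in epididymal adipocytes. Where a list's other members are named beside a count of few, they were chosen after their values were seen. The comparison, lists and genes were chosen with earlier results of these data known. Scaling, filters, the test, blocks and left-out arrays were varied. Promoters came from RefSeq on GRCm38.p6. The fitting steps were tested on simulated data.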

Additional observations from a re-analysis of the deposited data

Results flagged for a closer look

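The step from 14 to 18 months was measured in both cell types, and 3699 of the 23410 probe sets changed by different amounts in the 2 (limma interaction contrast over all 18 arrays, adjusted p under 0.05). The genes below had the largest such differences among the named genes, each as the epididymal log2 difference minus that in bone marrow.

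Cd209f gave an interaction of -5.39 (SE 0.56, adjusted p = 2.3e-06), where it differed by -4.16 in epididymal cells and by 1.23 in bone marrow. Retnla gave -5.24 (SE 0.30, adjusted p = 2.1e-09), with 0.25 in bone marrow. Cxcl13 gave -4.61 (SE 0.70, adjusted p = 0.00014), with -3.76 in epididymal cells and 0.85 in bone marrow, and it carried 1 array at 14 months far above the others. Jchain gave -4.44 (SE 0.46, adjusted p = 2.4e-06), where the bone marrow difference was 0.08.

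In the other direction, Cxcl10 gave 4.55 (SE 0.26, adjusted p = 2.1e-09), with 4.03 in epididymal cells and -0.52 in bone marrow. Gadd45b gave 4.55 (SE 0.26, adjusted p = 2.1e-09) and had moved by -1.77 in bone marrow. Ptx3 gave 4.45 (SE 0.30, adjusted p = 9.8e-09), with -0.31 in bone marrow, and Cxcl2 gave 4.08 (SE 0.32, adjusted p = 8.9e-08), with -1.36 in bone marrow.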

How the results depend on the processing

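The main counts were 2728 rises and 2919 falls, and for the difference from bone marrow 1886 higher and 1813 lower. Array weights gave 4421 and 4439 (3209 and 2791 for the difference from bone marrow), centring on the median 5527 rises (3102 higher), ribosomal protein genes set equal 4620 and 1683 (1121 lower), while testing every probe set of the table, named or not, gave 4435 falls. Adipocyte markers set equal, an alternative chosen after seeing the data, gave 801 and 8774 (428 and 8516). An adjusted p under 0.01 left 1640 rises (1010 and 1119), and a 2-fold minimum 315 and 1127 (659 and 974). Leaving out each compared array in turn gave 1869 to 2346 rises and 2343 to 2694 falls, with 1335 to 1647 and 1438 to 1711 for the difference from bone marrow. The first 6-month array, left out after its neutrophil values were seen, changed the counts to 2777 and 2943.

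Adding a replicate block gave 2721 rises and 2891 falls, and 1828 and 1784 for the difference from bone marrow. The same-numbered arrays of 14 and 18 months deviated together with correlations of 0.028, 0.108 and 0.023, so the numbers were not taken as pairs. Of the 216 genes, Ndufa9 and Mcm2 lost their call under the block.

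The 12 collagen falls were 7 with ribosomal protein genes equal, 21 with adipocyte markers equal, 5 at 2-fold and 7 to 11 without single arrays. With adipocyte markers equal, rises became 7 for lipogenesis, 4 for fatty acid oxidation, 5 for the citric acid cycle and 2 for the adipocyte markers themselves, whose mean that scaling holds fixed. At 2-fold they were 6 for cholesterol, 4, 2, 1 and 0 for those lists in that order. The cycle gave 11 at an adjusted p under 0.01 and 11 to 17 without single arrays. The 5 adipocyte marker rises were 14 with array weights, with the compared groups alone and with epididymal arrays alone, 15 after centring, 12 with ribosomal protein genes equal and 4 to 8 without single arrays. The numbers of falls in the macrophage, endothelial, fibroblast and mesothelial lists stayed within 1.5 times of their main values in these alternatives, while the fibroblast list, with no rise in the main setting, gave up to 4, with array weights and after centring.

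Lep, Plin3, Tnf and Il1b, which did not pass, turned to -0.17, -0.10, -0.20 and -0.26 with adipocyte markers equal. Without single arrays Tnf ranged from -0.00908 to 0.19 and Il1b from -0.00338 to 0.16. With adipocyte markers equal 33 of the 216 genes lost their call, against 9 after centring, and 31 lost it without some single array, Lipe, Me1 and Ndufa9 among them. Where no cause is given, the cause was not tested. The number of arrays limits the precision.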

Other observations

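Other gene families, taken by their symbols after the values were seen, gave further counts and carry no test of their own. Of 77 mitochondrial ribosomal proteins, 41 rose and none fell, at a median log2 difference of 0.49, with Mrps22 at 1.26. Of 50 proteasome subunits and assembly factors 25 rose and none fell (median 0.41), of 14 peroxins 8 rose (median 0.47), and of 24 genes of mitochondrial import 10 rose (median 0.33). With adipocyte markers set equal between arrays, 18, 6, 3 and 1 of these families' genes rose, in that order. All 3 Gadd45 genes rose, at a median of 2.48, and all 3 did in that scaling.

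All 7 genes of the Cd209 lectin family fell, at a median of -2.64, and so did all 5 Fc receptor genes, at -2.55. Of 33 other C-type lectins 16 fell, and of 19 Ms4a genes 9 fell, with no rise in either family. Semaphorins, guidance proteins of axons and vessels, fell in 13 of 20 cases with no rise, at a median of -0.83. Of 1027 olfactory receptor probe sets, which are not known for expression in fat, 6 rose and 8 fell, at a median of -0.03 that ranged from -0.35 to 0.18 over the other scalings.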
